A study of Drosophila melanogaster with 12 samples.

Results

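Polycomb binding in the larval central brain of Drosophila melanogaster was mapped as the log2 ratio of Dam-Polycomb to Dam only on each GATC fragment of the genome. The members are the 122591 fragments that carry a brain score, of 356504 fragments listed (34.4%), and each was described on its own. The profile rests on 4 of the 12 libraries of the series: Dam-Polycomb in 2 biological replicates, and Dam only in 2, the latter with 3 technical replicates each. The Dam only larvae were y,w with a transgene at ZH51C written as FL.hsp70P-Dam[4-HT-intein@L127C], and the Dam-Polycomb larvae carried the same construct joined to PC. All came from male wandering larvae of the third instar, with 20 dissected brains without the ventral nerve cord pooled per sample. The transgenes are driven by an hsp70 promoter, and their Dam carries a 4-hydroxytamoxifen-dependent intein, which was not induced in the brain samples. The brain sample mixes neurons, glia and progenitors, and a score is an average over them. The labelled tissue could not be checked against marker expression, since no RNA was measured here.

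Polycomb is the chromodomain subunit of Polycomb repressive complex 1. It binds histone H3 methylated on lysine 27, the mark laid down by Polycomb repressive complex 2, and together the complexes keep developmental regulator genes silent in cells where they are not needed. In flies the complexes are recruited at short Polycomb response elements and spread over broad domains around them. In DNA adenine methyltransferase identification (DamID), a bacterial methyltransferase fused to the protein methylates GATC sites close to where the protein sits, and unfused Dam reports how accessible the DNA is. A positive score therefore means more methylation by Dam-Polycomb than by free Dam, and a negative score means less. Both are relative to the scaling of the deposited scores, which is not known here.

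The deposited score is the authors' mean over replicates, so it carries no error between animals, and the depth behind it is unknown. An SD or quartile given below describes fragments along a chromosome, never animals, and nothing could be tested across animals. Positions are those of the deposited table, build dm3, counted from 1. The named loci are windows placed by general knowledge of the release 5 gene map and rounded to 10 kb, because annotation of that build was not used here. A window can therefore include neighbouring genes or miss the end of a gene.

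The brain profile was mostly low, with a narrow high part. The median score was -1.24 (quartiles -2.44 and 0.22), and 27.4% of scores were positive. Scores ran from -10.18 to 10.64. Scores above 3, an 8-fold excess of Dam-Polycomb on the deposited scale, were found on 14397 fragments (11.7%), and scores below -3 on 21297 fragments (17.4%). With the profile centred on its median the shares were 16.0% and 7.97%, so which tail is larger depends on where 0 is set. The uncentred shares are the background for all counts of high and low fragments below.

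The 5 large arms had like levels, and chromosome 4 stood apart in its spread. Medians were -1.19 on 2L (interquartile range 2.57), -1.43 on 2R (2.40), -1.28 on 3L (2.52), -1.19 on 3R (2.58) and -0.98 on X (3.04). On chromosome 4, a small and largely heterochromatic chromosome, the median was -0.47 with an interquartile range of 7.91. In fragments of 200 to 2000 bp alone its median was -1.54, within the range of the large arms at those lengths, -1.59 (2R) to -1.14 (X). Its scores split to both sides: 29.2% lay above 3 and 36.3% below -3, while on the large arms these shares were 8.72% (3L) to 13.7% (3R) and 15.4% (2L) to 19.3% (2R). The 951 scored fragments of the heterochromatic scaffolds were low, with a median of -3.42, and 59.2% of them lay below -3. Only 3.74% of the 25421 scaffold fragments had a score at all, against 36.7% on the 6 arms.

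**Figure D1:**
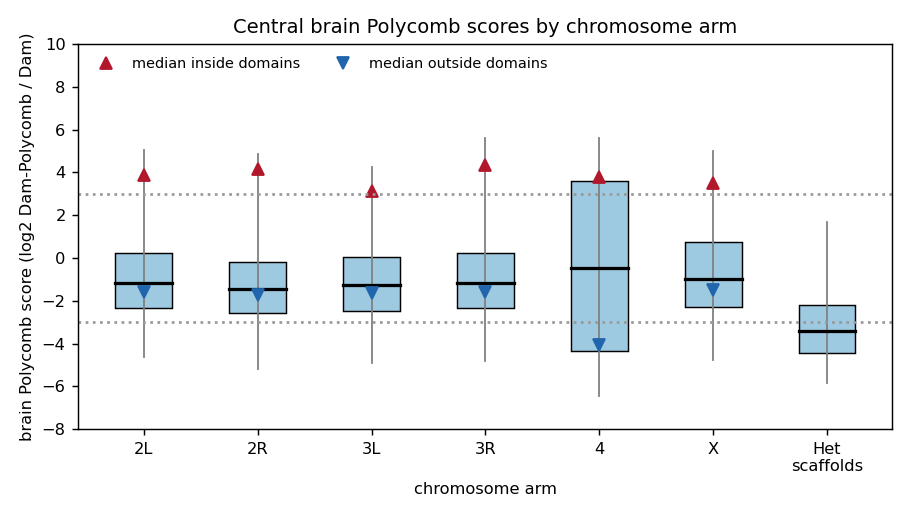
Brain Polycomb score (log2 ratio, y axis) by chromosome arm (x axis). Boxes span the quartiles, thick lines are medians, thin lines run from the 5th to the 95th percentile of fragments, triangles mark medians inside (up) and outside (down) domains, and dotted lines mark 3 and -3. Chromosome 4 has the widest box, from -4.33 to 3.58, and the scaffolds the lowest median, -3.42.

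High fragments were unevenly spread along the arms. Over the 120 windows of 1 Mb with at least 100 scored fragments on the large arms, the share of fragments above 3 had a median of 8.15% and ran from 0 to 67.0%. It stayed under 5% in 42 windows and passed 30% in 6. The top window was the distal end of 2R, from 21000001, which the end of the arm cuts short. Its 194 scored fragments had a median of 3.60. Over the whole distal 1 Mb of 2R, 28.8% of 1288 fragments were above 3. The highest windows of full length were the Hox windows of 3R. They had 46.9% above 3 from 12000001 to 13000000 and 45.0% from 2000001 to 3000000. Those 2 windows had interquartile ranges of 7.80 and 6.48, and each also held low stretches.

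Other windows had no fragment above 3. On 3L from 16000001 to 17000000, none of 939 scored fragments passed 3, and the longest stretches without a domain were 2367 kb on X (from 10138731 to 12505365), 2283 kb on 3L (from 15050797 to 17333630) and 2098 kb on 3R (from 14565451 to 16663794). The centromere-side ends differed between arms. The centromere-proximal 1 Mb of 2R had a median of -4.24 with 74.9% of 187 fragments below -3, and that of 3L had -3.56 with 65.1% of 166. The same end of X had a median of -1.26 with 11.2% of 581 below -3, beside -0.96 and 16.8% over the middle of that arm. At 2L both tails were present at this end, with 45.4% of 383 fragments below -3 and 13.1% above 3.

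High fragments came in long runs. Counting consecutive scored fragments all above 3, there were 2119 runs, of which 754 were single fragments and 728 held at least 5. The runs of at least 5 held 82.8% of all fragments above 3, those of at least 20 held 47.1%, and the longest had 158. Fragments below -3 were more broken up: 7150 runs held them, 3429 of them single fragments, and runs of at least 20 held 4.89%. The longest low run had 50 fragments. Low runs nevertheless had the larger span: 1353 low runs of at least 5 fragments spanned 19.7 Mb against 7.08 Mb for the high ones. Median lengths were 10.8 kb (low) and 6.37 kb (high). A span includes the unscored DNA between scored fragments, so not all of it was scored low or high. With runs ended at gaps of over 5 kb, 1312 low runs and 728 high runs of that size were counted.

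**Figure D2:**
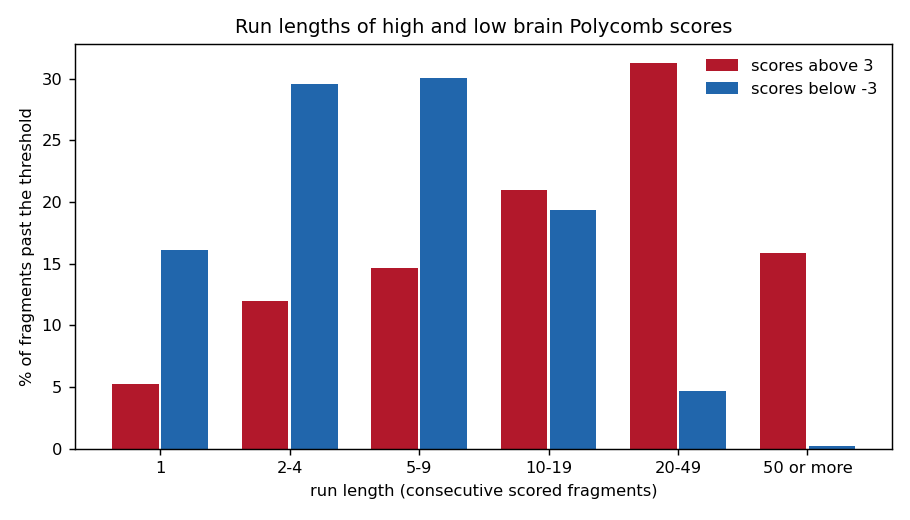
Share of the fragments above 3 (red) and below -3 (blue), in percent, by the length of the run they belong to in consecutive scored fragments. Runs of 20 to 49 hold the largest part of the high fragments (31.3%), whereas runs of 2 to 4 and 5 to 9 hold the largest parts of the low ones (29.5% and 30.1%).

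The 3 longest high runs lay at windows of the list of developmental loci. The top run was in the bithorax complex on 3R, 118 kb from 12559284 to 12677761, with a mean of 6.50 (SD 1.19, 158 fragments) and a highest score of 10.45. The next was on 2L from 3531154 to 3618763 and covered most of the odd-skipped window, with a mean of 6.07 (SD 1.26, 153 fragments). The third, on 2R from 7403154 to 7464714, lay at engrailed and had a mean of 6.45 (SD 1.22, 109 fragments). Of the 10 longest runs, 3 were parts of the bithorax domain, split by short interruptions. The runs at Distal-less (81 fragments, mean 5.14) and teashirt (78 fragments, mean 5.57) were also among the 10. The runs on 3R from 654323 to 700412 (90 fragments, mean 5.87) and from 12203303 to 12257125 (81 fragments, mean 6.24), and on 3L from 12412661 to 12461742 (79 fragments, mean 4.95), lay in no listed window.

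The 3 longest low runs lay on chromosome 4, 3L and 3R. On chromosome 4 the run from 881463 to 959300 had a mean of -5.36 (SD 1.19, 50 fragments). The 3L run from 220246 to 272820 had -5.41 (SD 1.12, 46 fragments), and the 3R run from 118059 to 159106 had -4.60 (SD 1.14, 37 fragments). The 3R run ended shortly before one of the highest domains of the profile, from 163104 to 184928, which had a mean of 6.22 (SD 1.37, 42 fragments). On chromosome 4, low runs of at least 5 fragments held 90.6% of the low fragments and high runs 86.5% of the high ones, so high and low blocks alternated along the chromosome. On the large arms the low runs held 51.6% (3L) to 56.3% (X).

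The heterochromatic scaffolds had 2 high runs, both on 3LHet and next to each other. The run from 200388 to 206500 had a mean of 5.52 (SD 0.89, 9 fragments), and that from 207316 to 216417 had 4.71 (SD 1.26, 20 fragments). They held 29 of the 36 scaffold fragments above 3.

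Fragments close to each other had like scores. The correlation between a fragment and the next scored one was 0.88 over 121634 pairs, at a median distance of 0.64 kb. It was 0.67 at 10 fragments (8.43 kb), 0.34 at 50 (45.5 kb) and 0.08 at 200 (187 kb). Some of these pairs meet at a GATC site, whose part in the likeness was not tested. The median absolute difference between neighbours was 0.82 inside domains and 0.69 outside.

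Domains were called from the same scores with a 2-state hidden Markov model, so their level is a description. There were 307, covering 18.1% of the scored fragments of the 6 arms. Their lengths ran from 1.35 kb to 404 kb, with quartiles of 11.5 kb and 55.7 kb around a median of 25.9 kb. The 37 domains over 100 kb held 44.6% of the domain length, and 70 were under 10 kb. Short domains were lower: the median of the domain means was 2.49 for those up to 10 kb, 3.28 from 10 to 30 kb, 4.30 from 30 to 100 kb and 3.85 above. By arm, the median domain mean was highest on 2R (3.82), 4 (3.76) and 3R (3.73) and lowest on X (2.87) and 3L (2.89). The highest domain means belonged to the bithorax complex (6.47) and to caudal on 2L, from 20760746 to 20787083 (6.36, SD 1.60, 46 fragments). The next lay on 3R from 163104 (6.22), on 3R from 20901392 to 20922476 (6.21, SD 1.27, 36 fragments) and on X from 4529800 to 4541371 (6.11, SD 1.27, 13 fragments). The 7 domains of chromosome 4 had means of 2.85 to 4.60. Within domains few fragments dropped out, since 268 of 22021 (1.22%) were below 0 and 196 domains had none.

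The 456 edges with 15 scored fragments inside and 15 outside free of other domains were lined up. They were placed by the model on these same scores, so a rise there is built in and its size is a description. The median score was -1.75 at the fifth fragment outside, -0.19 at the last one outside, 2.07 at the first one inside and 3.35 at the fifth inside. The level went on climbing slowly to 4.02 at the 12th fragment. At 53.1% of the edges the fragments on either side met at a GATC site, with no unscored DNA between them.

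**Figure D3:**
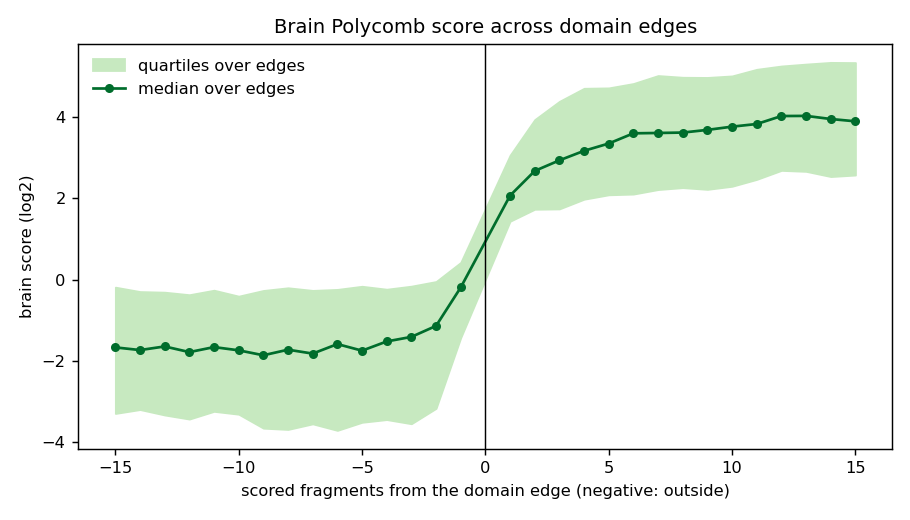
Median brain score (line) with quartiles (band) at each of 15 scored fragments outside (negative) and inside (positive) the edge of a domain, over 456 edges. The median passes from -0.19 to 2.07 across the edge and reaches 3.35 at the fifth fragment inside. Edges were placed on these same scores, so a rise there is built in.

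Edges differed in what lay beside them. At 100 edges (21.9%) the 5 fragments outside averaged below -3, and the 5 inside had a median level of 3.75 (quartiles 3.03 and 4.54). At 269 edges the outside lay between -3 and 0, and the inside level was 2.98. At 87 edges the outside was at 0 or above, and the inside level was 1.90 (quartiles 1.55 and 2.49). Domains that bordered depleted DNA were thus higher just inside the edge than those that faded into a middle level, a contrast that persisted from the 6th to the 15th fragment inside, where the medians were 4.63, 3.96 and 2.52.

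A sharp step was a difference over 5, which is 32-fold, between the means of 5 scored fragments on either side of a boundary, with all 10 within 20 kb. There were 292, of which 141 went up and 151 down along the coordinate. They had a median size of 6.52, and the adjacent fragments themselves differed by a median of 4.41. Of the steps, 247 (84.6%) lay within 2 fragments of a domain edge, and none lay deeper inside a domain. Steps and domains were called from the same scores, so this coincidence is largely built in and supports neither call. The other 45 separated depleted DNA (median -5.38) from middle levels (median 0.51, at most 2.05). Chromosome 4 had the most steps per scored fragment, 8.74 per 1000, against 1.97 (X) to 2.65 (2R) on the large arms. Of the domains, 41 had such a step at both ends.

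The 5 largest steps all ended or began at very low scores. On 3L the mean fell from 5.31 (SD 0.84) before 20790543 to -5.75 (SD 1.11) after 20793091, a drop of 11.06 with 2547 bp unscored between. On X it went from -4.36 (SD 1.27) to 6.17 (SD 2.35) at 9177069, with no unscored DNA. On 2L it went from 4.93 (SD 1.61) to -5.51 (SD 0.77) between 5517878 and 5520561. The fourth, on 3R at 17202516, lay at the start of the NK homeobox cluster, from -4.89 (SD 1.09) to 5.41 (SD 2.61). The fifth closed the bithorax domain, from 5.52 (SD 2.44) before 12814490 to -4.65 (SD 1.59) after 12817327.

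Scores varied inside domains. In the 228 domains with at least 20 scored fragments, the running median over 5 fragments had 416 peaks that stood at least 2 above the dips beside them. There were 34 domains without a peak, 100 with 1, 94 with more, and at most 12 in a domain. Peaks had a median height of 5.91, which was 1.70 above the median of their own domain (quartiles 1.24 and 2.24). Neighbouring peaks in a domain were a median of 22.0 kb apart. Neighbouring scores inside domains differ by a median of 0.82, so a rule of this kind also marks local scatter, and a peak is not by itself a binding site.

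The count of peaks depends strongly on the smoothing, so they were read in fragments not used to find them. In 165 domains, 201 peaks were called on every second scored fragment, at a median of 1.74 above the domain. The up to 4 fragments in between had a median of 1.24 above (quartiles 0.72 and 1.93), and 183 of 201 (91.0%) were above the domain's median. The fragments used and left out come from the same libraries and can meet at a GATC site, so this shows local likeness along the chromosome and not agreement between animals. With a running median over 9 fragments 225 peaks were found, and with 3 fragments 707.

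The Hox complexes formed the longest and the highest domain. Hox genes encode homeodomain factors that give segments along the body axis their identity, and they are the classical targets of the Polycomb group. The Antennapedia complex domain on 3R, from 2487040 to 2891255, was 404 kb long, with a mean of 5.12 (SD 1.66, 612 fragments). The bithorax complex, which holds Ubx, abd-A and Abd-B, lay in a domain of 332 kb from 12482603 to 12814490, with a mean of 6.47 (SD 1.39, 415 fragments). Their internal shapes differed. The bithorax domain was high throughout, with 98.8% of fragments above 3 and 10-kb means of 4.27 to 7.44. Its SD of 1.39 was no smaller than the median SD of all domains, also 1.39. The Antennapedia domain dipped to 2.11 in the bin from 2530001 (15 fragments) and to 2.23 in the bin from 2640001 (8 fragments) and reached 7.31 in the bin from 2500001.

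Local maxima were found along both Hox domains. The Antennapedia domain had 12, the most of any domain. The highest was at 2501879 to 2502187, with a smoothed score of 8.09, followed by one at 2828001 to 2828735 with 7.73. The latter stood 6.11 above the higher of the low points on either side, which can lie as far off as the domain ends. Its 10-kb bin averaged 7.20, and the bins beside it averaged 5.63 and 5.85. The bithorax domain, the third longest, had 7 peaks. Its highest were at 12793535 to 12794059 (8.55) and 12616680 to 12618032 (8.45), and these stood 2.02 and 1.92 above a domain median that was itself high.

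The long domains at the selector genes homothorax and cut were lower than both Hox domains. The homothorax gene encodes a homeodomain cofactor of Hox proteins. Its domain on 3R ran 256 kb from 6242613 to 6498231, with a mean of 3.26 (SD 1.33, 425 fragments) and 10 peaks. The level was lowest in the bin from 6300001 (1.93) and highest at the right end (5.89 in the bin from 6490001), where a peak at 6492942 to 6493617 reached 7.23. The cut gene, which encodes a homeodomain factor of sensory organ fate, lay at the right end of a domain on X of 335 kb, from 7236802 to 7571779, with a mean of 2.87 (SD 1.35, 436 fragments) and 9 peaks. Its bins stayed between 1.29 and 4.30. Other long domains were on X from 20395518 to 20630345 (mean 4.06, SD 1.60, 235 kb) and on 2L from 15275062 to 15490426 (mean 2.99, SD 1.38, 215 kb), the latter with escargot and snail inside.

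**Figure D4:**
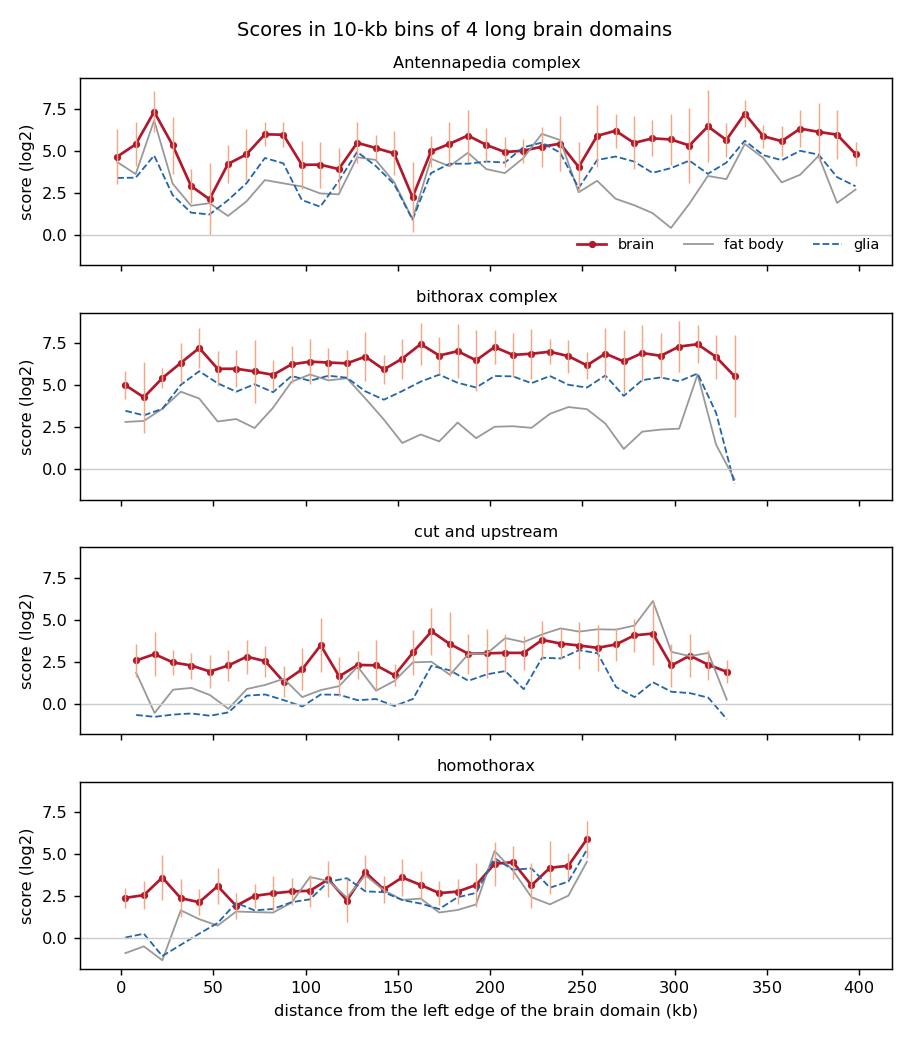
Mean score in 10-kb bins (y axis, log2 ratio) by distance in kb from the left edge of 4 long brain domains. Red points are brain with bars of 1 SD over fragments, and grey and dashed blue lines are fat body and glia over the same brain-scored fragments. The bithorax domain stays at 4.27 or above in every brain bin, the Antennapedia domain dips to 2.11 and 2.23, and the cut domain stays at 4.30 or below.

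The list of loci held 41 developmental windows and 2 windows at widely active genes. It was drawn up with earlier results of these data known and holds many classical Polycomb targets, so its level is a description. Of the 4077 scored fragments in the developmental windows, 3005 (73.7%) were above 3, beside 11.7% of all scored fragments, and 77 (1.89%) were below -3, beside 17.4%. In 37 of the 41 windows at least 50% of the scored fragments lay in a domain, and in 18 all did. The window means had a median of 4.35 and ran from -0.70 to 6.41. Actin 5C, a cytoskeletal actin, had a mean of -3.46 (SD 1.74, 16 fragments), and the window of Ribosomal protein L32 had -3.60 (SD 1.98, 13 fragments). The latter lay directly beside a high domain, from 25849160 to 25860279, with a mean of 4.56.

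Segment polarity and pair-rule genes divide the embryo into segments. Only 1 window, engrailed and invected, was listed as segment polarity, and wingless and hedgehog were listed as ligands. That window and several pair-rule windows were among the highest. The engrailed and invected pair encodes homeodomain factors of posterior compartments. Their window on 2R had a mean of 6.14 (SD 1.55, 117 fragments) in a domain from 7348566 to 7466198, with a peak of 8.74 at 7362364 to 7363752. The even-skipped domain was compact, 16.4 kb from 5860083 to 5876515 on 2R, with a mean of 6.04 (SD 1.98, 22 fragments). The sloppy paired genes on 2L had 6.08 (SD 1.42, 57 fragments) and odd-skipped had 6.06 (SD 1.39, 41 fragments). The odd-skipped window was the right part of a 100.0-kb domain, whose peak at 3541186 to 3541382 had the highest smoothed score of all peaks, 8.88. The paired gene was different: only a 10.3-kb domain from 12081904 to 12092240, with a mean of 2.93, lay in its window.

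Gap genes and caudal, which respond first to the maternal gradients, covered a wide range. Caudal, a homeobox gene of the posterior body, had a mean of 6.08 (SD 2.72, 33 fragments), hunchback had 5.93 (SD 1.03, 24 fragments) and Kruppel had 5.28 (SD 1.22, 32 fragments). These 3 windows were nearly all above 3, with 31 of 33, 24 of 24 and 30 of 32 fragments. The giant window on X had 4.54 (SD 2.27, 41 fragments). Tailless, which acts in neural stem cells of the brain as well as in the embryo, had a lower mean of 2.21 (SD 1.23, 50 fragments), and 12 of its 50 fragments were above 3. The window of knirps and knirps-like on 3L was broken into blocks: 10-kb means were 4.53 from 20610001 and 2.40 from 20620001, between -1.13 and -0.21 in the 5 bins from 20630001 to 20680000, and 3.17 and 2.62 in the bins from 20680001 and 20690001. The head gap genes empty spiracles (5.88, SD 1.43, 35 fragments) and ocelliless (5.55, SD 1.08, 62 fragments), both homeobox genes needed for head and brain segments, were high throughout.

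Ligand genes were among the lower loci. Wingless, a Wnt ligand, had a mean of 3.36 (SD 2.06, 51 fragments), with 5.11 in the bin from 7300001 and 1.88 in the bin from 7320001. Hedgehog had 2.58 (SD 2.93, 51 fragments) and a domain of 18.0 kb from 18955664 to 18973686, beside bins at -4.14 and -3.74. For decapentaplegic, a BMP ligand, the mean was 0.76 (SD 1.84, 82 fragments) and only 37.8% of the scored fragments lay in a domain, which ran from 2444052 to 2457807. Of its 82 fragments, 10 were above 3 (12.2%, beside 11.7% of all), so the window as a whole did not stand out in that count.

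Selector genes of appendages and other structures lay wholly or mostly in domains. Among them teashirt had a mean of 5.58 (SD 1.06, 63 fragments), vestigial 5.12 (SD 2.07, 40 fragments), Distal-less 4.84 (SD 2.04, 79 fragments) and apterous 4.24 (SD 1.67, 72 fragments). These act in trunk, wing and limb identity. The spalt pair of zinc finger genes had 4.50 (SD 1.16, 182 fragments) and the Iroquois complex of homeobox genes 4.52 (SD 1.20, 238 fragments), with even 10-kb means of 3.78 to 5.42 and 3.63 to 5.30. The POU gene ventral veins lacking had 3.26 (SD 1.70, 58 fragments). The retinal determination genes eyes absent (3.97, SD 2.92, 73 fragments) and dachshund (2.58, SD 2.77, 48 fragments) had windows that ran into low DNA, with lowest 10-kb means of 0.45 and -2.17.

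The windows at the NK, GATA and Dorsocross genes held both high and low stretches. The tinman end of the NK homeobox cluster, a group of mesodermal and neural homeobox genes, had a mean of 5.16 (SD 2.78, 227 fragments). Of these, 89.0% were above 3 and 4.41% below -3, and the 10-kb means ran from -5.12 to 6.76. GATAe and pannier, both GATA factors, had 4.35 (SD 3.32, 88 fragments): the 4 bins from 11830001 to 11870000 averaged 5.05 to 6.35, and the bin just past the window, from 11880001, averaged -4.14. The Dorsocross T-box genes had 2.23 (SD 3.00, 80 fragments), with a bin at 4.70 from 9030001 followed by one at -2.66.

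Neural and glial genes differed among themselves. The homeobox gene ventral nervous system defective, which patterns the neuroectoderm, had a mean of 5.70 (SD 1.35, 69 fragments). Escargot and snail, zinc finger genes of the Snail family, had 5.20 (SD 1.28, 19 fragments) and 2.61 (SD 1.20, 37 fragments) within a shared domain. The proneural genes achaete and scute had a mean of 0.60 (SD 1.31, 85 fragments), with 4 fragments above 3 and a weak domain from 278161 to 295884 (mean 1.73). The window of glial cells missing, which holds the master regulators of glial fate, had 3.19 (SD 3.01, 107 fragments) and a domain from 9577069 to 9612330 with a mean of 4.35. The reversed polarity (repo) window, at a homeobox gene expressed in glia, had 10-kb means of 0.52, -3.62, 4.73 and 5.04 from 14060001 on. A domain from 14082127 to 14099357 (mean 5.37, SD 1.47, 30 fragments) filled the later part of the window, and another from 14056456 to 14064395 (mean 3.28, SD 1.27, 16 fragments) reached into its start. Which genes of the window they cover was not determined.

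The Enhancer of split complex, a cluster of Notch target genes of the bHLH-Orange family, was the lowest developmental window. Its mean was -0.70 (SD 1.91, 109 fragments), with no fragment above 3, 11 below -3 and no domain. The middle of the window, from 21830001 to 21860000, lay at -0.07 to 0.83, above the profile median. The bins on either side averaged -1.33 and -2.18. The 2 listed windows at genes of the Polycomb group itself lay wholly or mostly in domains. Posterior sex combs and Suppressor of zeste 2 had 4.35 (SD 1.77, 73 fragments), and polyhomeotic had 4.04 (SD 2.77, 49 fragments).

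**Figure D5:**
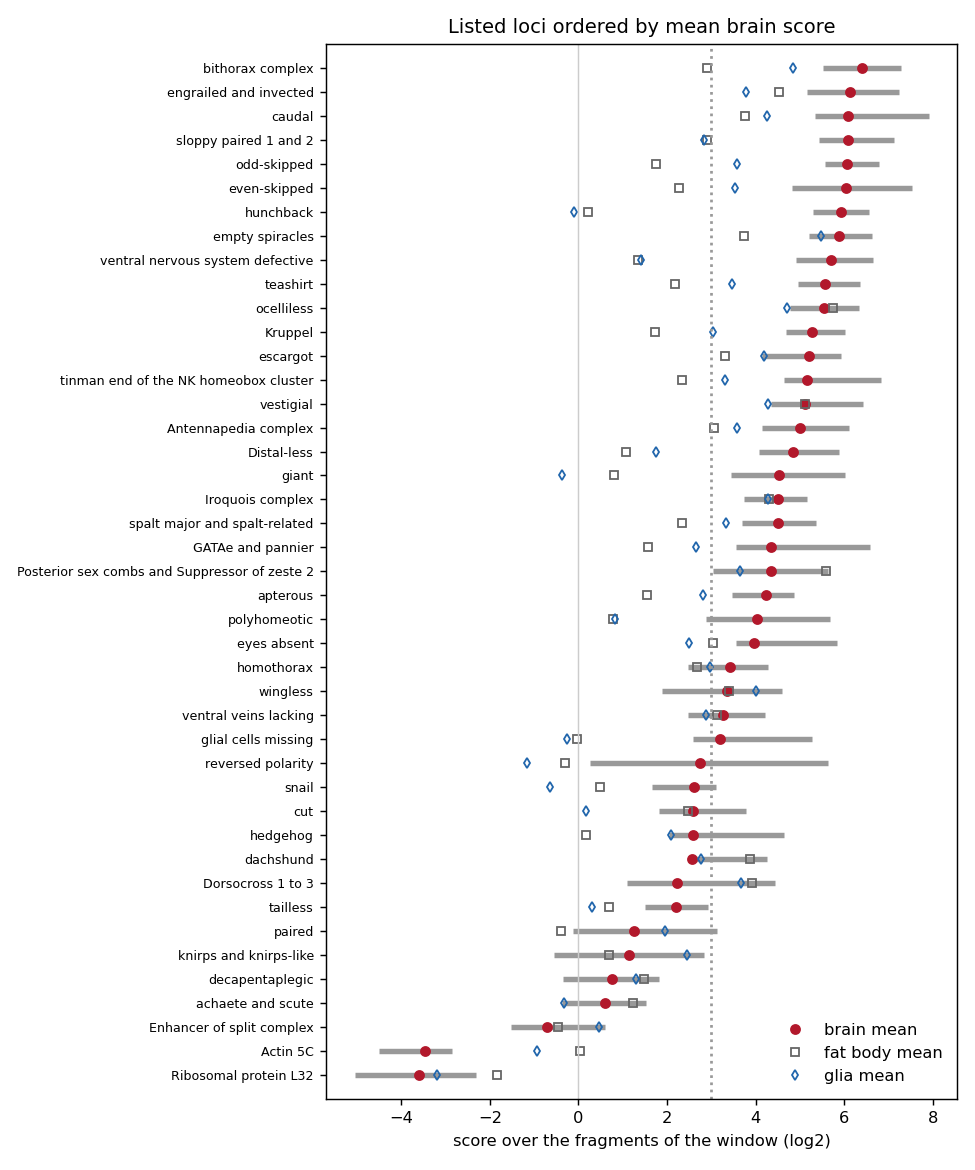
Mean brain score (red points, log2 ratio) over each of the 43 windows, ordered, with grey bars for the quartiles over fragments and open symbols for the fat body and glial means. Each mean is over the fragments scored in its own profile. The bithorax complex is at the top with 6.41, and the windows at Actin 5C and Ribosomal protein L32 are at the bottom with -3.46 and -3.60. The dotted line marks 3.

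Fat body and glia serve as a backdrop, with their own profile medians of 0.09 and -0.60. The fat bodies came from males of the brain genotypes, 10 larvae per sample, with the intein induced by 25 µM 4-hydroxytamoxifen. Glia were profiled in brains of 20 y,w/w larvae of both sexes, in which repoFlp5, a recombinase made in cells that express repo, acts on min.hsp70P-STOP#1-Dam, or on the same construct with PC, at ZH51C. Of the fragments above 3 in brain, 41.4% of the 9391 scored in fat body and 47.5% of the 13734 scored in glia were above 3 there. Over all brain-scored fragments these shares were 9.37% of 94759 in fat body and 7.03% of 114601 in glia. Of the fragments below -3 in brain, 9.87% of 19630 in fat body and 28.3% of 20548 in glia were below -3 there, beside 2.83% and 7.68% over all brain-scored fragments. Between brain and fat body the tissue and the induction differ together, and between brain and glia the cells, the construct and the sexes, so these cannot be told apart. A fat body score was present for 65.2% of the fragments above 3 in brain and for 92.2% of those below -3. Hunchback (0.21 in fat body, -0.10 in glia), giant (0.81 and -0.38) and glial cells missing (-0.03 and -0.26) were high in brain and between -0.38 and 0.81 in the other profiles. Each locus mean here is over the fragments scored in its own profile. In fat body and glia these were 13 and 26 at hunchback, 21 and 62 at giant, and 78 and 146 at glial cells missing. Ocelliless (5.74 and 4.71), vestigial (5.11 and 4.29) and the Iroquois complex (4.30 and 4.29) were high in all 3.

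Fragment length bears on these values. Of fragments under 200 bp 8.91% had a brain score, against 85.5% of those of 2000 bp or more. The short ones that were scored were more often high: 20.9% were above 3 and 5.24% below -3, against 5.12% and 8.86% at 2000 bp or more, while fragments from 500 bp to under 1000 bp had 9.13% and 22.5%. Inside domains the median was 4.03 under 200 bp and 2.76 at 2000 bp or more. Part of this difference in level therefore moves with length, and its part in the locus values was not tested.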

How the data were processed

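The labels describe PCR amplification of Dam-methylated DNA, shearing and sequencing. Tools named in the submitters' processing notes are cutadapt, Bowtie2 and HTSeq, and the build is dm3; no versions are given. Each deposited value was taken as a log2 ratio of Dam-Polycomb to Dam only on a GATC fragment, averaged by the authors over replicates. The file headers name a Dam-normalized mean. The log base was read from the headers, the design text and the values together, and the fold values above rest on it. The sources used here do not say how scores were scaled or why fragments lack one. Read counts and single replicates were not analysed here.

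Computed here in Python 3.11.15 (numpy 2.4.6, pandas 2.3.3, scipy 1.17.1, numba 0.67.0, matplotlib 3.10.9) were summaries by arm, 1-Mb window and 10-kb bin, runs past 3 and -3, and domains on the 6 arms. Domains are Viterbi paths of a hidden Markov model (2 states, Student t with 4 degrees of freedom, at least 5 scored fragments). Domain, step and peak calling was tested on simulated scores; on simulated flat domains the peak rule also marked maxima. Named regions are the 3 longest runs on either side, the 5 longest and 5 highest domains, the 5 largest steps, the 3 domains with most peaks and every window of the list. Other regions given by position were chosen after their values were seen. Members, list and thresholds were chosen with earlier results of these data known. Of the windows first listed, 3 were dropped because their position was unsure, and some were renamed to what they hold. All 58 symbols behind the remaining 43 windows were in the release 6 gene table, on the same arm and in the same order. A window shifted along its arm could still pass this check, so it does not test the dm3 positions. Alternatives were other thresholds, smoothing windows, emissions and minimum sizes, fragments of 200 to 2000 bp, and, added after seeing the data, centring on the profile median.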

Additional observations from a re-analysis of the deposited data

How the results depend on the processing

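No paired analysis was possible because the deposited columns are means over replicates. For the same reason no replicate could be left out. Counts of runs and domains, and the count of listed loci in a domain, stayed within 1.5 times of the reported ones under all alternatives run for them. The counts of steps and peaks did not: steps numbered 529 for a difference over 4 and 181 for one over 6, and peaks numbered 707 and 225 with running medians over 3 and 9 fragments and 198 with a prominence of 3. The share of fragments above 3 was 13.5% above 2.5, 10.1% above 3.5, 10.6% for fragments of 200 to 2000 bp and 16.0% when the profile was centred on its median. The share below -3 was 24.0% below -2.5, 12.6% below -3.5, 19.6% for those lengths and 7.97% when centred; centring was chosen after seeing the data. The share of fragments scored was 59.5% at 200 to 2000 bp. At those lengths the medians by arm were -1.35 (2L), -1.59 (2R), -1.43 (3L), -1.32 (3R), -1.54 (4) and -1.14 (X), so that chromosome 4 was no longer the highest. Means in place of medians were -0.69, -1.09, -0.99, -0.65 and -0.58 on 2L, 2R, 3L, 3R and X, and -0.38 on chromosome 4, the highest. The cause was not tested. The unknown depth limits all scores, and no error between animals can be given.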
